A study of Mus musculus with 3 samples.

Results

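A set of 41 genes that mark leukocyte lineages or encode the MHC class II antigen presentation machinery was followed in primary cultures of mouse mammary tumors, to ask which immune cells the cultures still held and how their genes stood after RANK ligand (RL). The genes were taken by symbol: genes shared by all leukocytes, genes shared by myeloid cells, and genes of macrophages, granulocytes, T cells, cytotoxic and natural killer (NK) cells and B cells, with Itgax (CD11c) and the class II genes. All 41 were on the array, with 52 probes, among 21154 named genes. The tumors, with the codes 811a, 812a and 815a, came from 3 tumor-bearing mice and carry the polyoma middle T oncogene (PyMT) under the mouse mammary tumor virus (MMTV) promoter, which drives it in the mammary epithelium. The labels call the samples primary tumor cultures, whereas the study's methods describe such cultures from transplants of RANK+/+ or RANK-/- tumors, and neither transplantation nor RANK genotype is given in the labels. Digested tumors were plated on growth factor-reduced matrigel in DMEM F12 with fetal bovine serum, penicillin and streptomycin, cholera toxin, insulin and EGF. From each tumor, 1 culture received RL for 24 h and 1 was left untreated as control, and the RNA of both shared 1 two-color Agilent mouse array, so that 3 arrays held 6 channels. Plating preceded RL by a day. The sample labels give its dose as 1000 ug/ml, and the study's methods give another, lower dose. Age and strain of the mice were not given in the sample labels. Control RNA was labeled with Cy5 in tumors 811a and 815a and with Cy3 in tumor 812a, so that tumor 812a was the only array of its dye order. The arrays shared 1 slide and 1 scan. For such cultures the study's methods name removal of draining lymph nodes and lysis of erythrocytes but no removal of CD45+ cells. Sorting of CD45- cells is described for other experiments of the study.

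All nucleated blood cells carry CD45 (Ptprc) on their surface, and macrophages are abundant in PyMT tumors, where they depend on the growth factor CSF1. Macrophages, dendritic cells and B cells load peptides on MHC class II molecules under the control of the coactivator CIITA, whereas T cells recognize these complexes through the T cell receptor and its CD3 subunits. RANK, the receptor of RL, is found on mammary epithelial cells and on cells of the myeloid lineage, in which it drives the formation of osteoclasts.

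Detection was counted lineage by lineage. A probe was counted as detected in a channel where the scanner software marked its signal as well above background. Of the 41 genes, 27 were detected in all 3 control cultures, beside 65.7% of all named genes, and 27 in all 3 RL cultures, beside 65.3%. The members' share was near that of all named genes in both conditions. A total of 28 were detected throughout at least 1 condition and entered the test, and 26 of these in all 6 channels. Another 2 genes, Itgax and Gzmb, were detected in 1 channel each. The other 11 were detected in no channel, beside 26.6% of all named genes: Spi1, Cd163, Cxcr2, Cd3d, Cd3g, Cd8a, Cd8b1, Ms4a1, Cd79a, H2-Aa and Ciita. Their 12 probes had processed signals of 1.47 to 8.02, where a processed signal is the intensity after the software's background subtraction and dye normalization. The software's more lenient call asks for a signal positive and significant against local background. By it Cd79a had 6 channels, H2-Aa and Ciita 5, Cxcr2 and Cd3g 4, and Cd8a and Cd8b1 3. Spi1 and Ms4a1 had 1, and Cd163 and Cd3d 0. Absence of the stricter mark therefore limits the signal of the probe and does not show an absence of RNA. Whether these 12 probes read their own transcripts was not tested. Of the 2 probes of Nkg7, 1 was detected in all 6 channels and the other in none. By lineage, all 3 genes shared by leukocytes, 6 of 7 shared myeloid genes and 9 of 10 macrophage genes were tested, against 1 of 2 granulocyte, 3 of 7 T cell, 2 of 3 cytotoxic, 0 of 2 B cell and 4 of 6 class II genes. These groups are small and their differences were not tested. Of the further lists 10 of 14 neutrophil and 7 of 14 T cell genes on the array were tested. The heat map shows the signals gene by gene. In this bulk RNA, fewer cells of a type and less RNA per cell cannot be told apart.

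**Figure D1:**
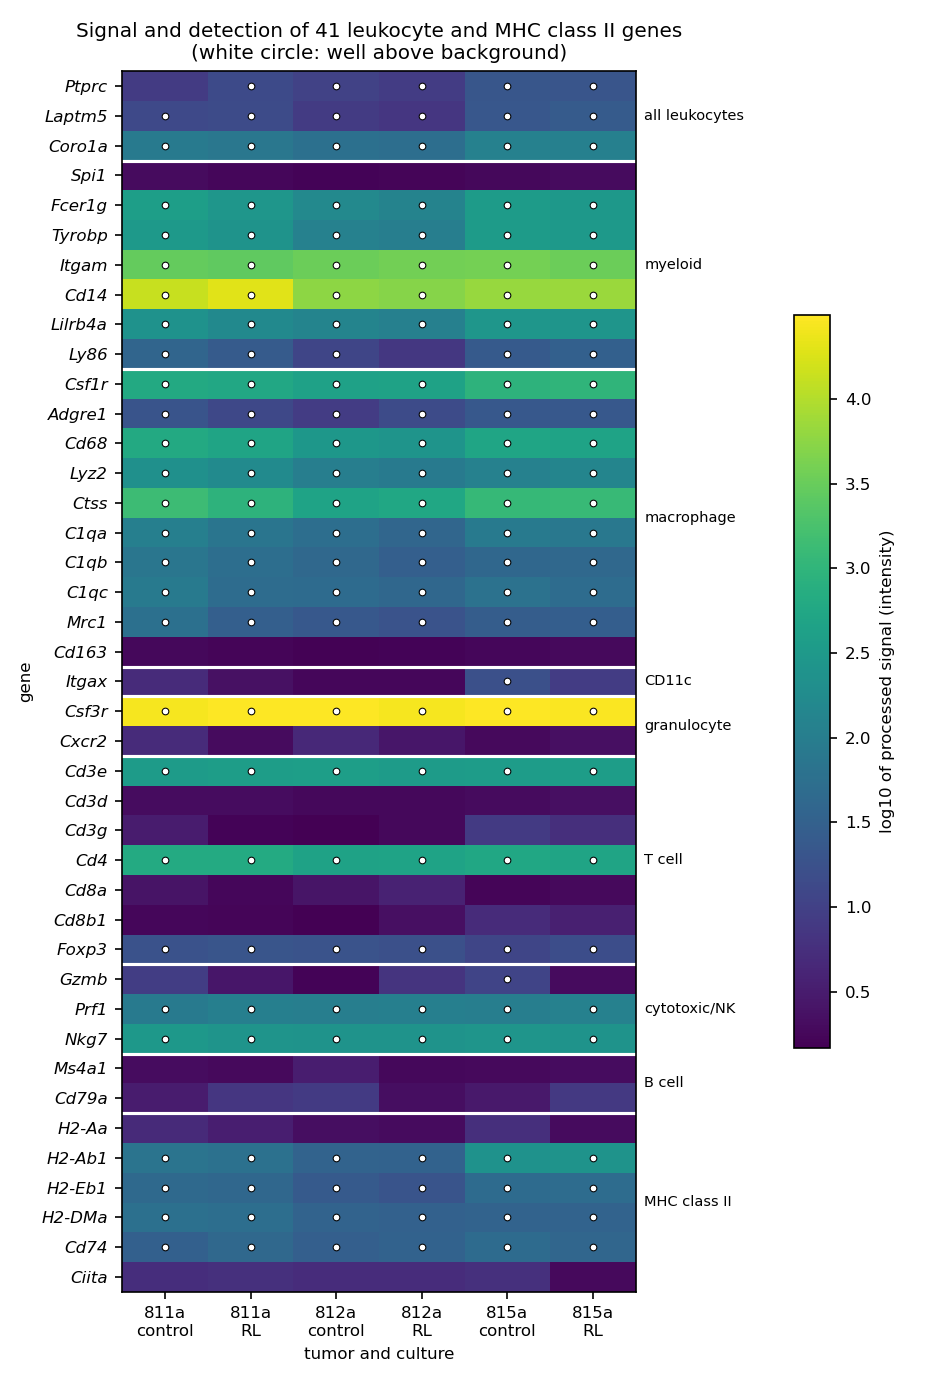
Processed signal (log10 of intensity) of the 41 genes in the control and RL culture of tumors 811a, 812a and 815a, each gene by the probe used for the test or, if none, by its brightest probe. A white circle marks a channel in which the probe was well above background: 26 genes have it in all 6 channels and 11 in none. Colors can be compared along a gene's line, not between genes.

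Of the 3 members that all leukocytes share, Ptprc and Laptm5 had signals close to the limit of detection and Coro1a did not. Ptprc, which encodes the phosphatase CD45, gave control signals of 8.17, 10.3 and 21.4 in tumors 811a, 812a and 815a and RL signals of 13.9, 8.70 and 20.4. The control culture of 811a was its only channel that was not well above background. Laptm5, a lysosomal protein of hematopoietic cells, gave 13.4, 8.27 and 21.7 in the control cultures and 14.6, 7.24 and 26.0 with RL. Tumor 815a had the highest signal of both genes and the ranges of the control and RL cultures overlapped. Coro1a, an actin-binding protein of leukocytes, gave 89.4, 58.9 and 116 in the control and 75.5, 52.9 and 112 in the RL cultures, again highest in 815a and lowest in 812a. Its mean log2 ratio of RL over control was -0.090 ± 0.053 (SD, n = 3), with an adjusted p = 0.848 in limma. Of 16 further pan-leukocyte genes, 13 were tested, Cd53 was detected on some arrays, and Dock2 and Lcp2 in no channel. Over the 6 channels, the probe of Lcp1, an actin-bundling protein, gave 2623 to 6380.4 and that of the phosphatase gene Ptpn6 672 to 889.

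Among the genes shared by myeloid cells, the adaptors and receptors stood well above the array's background. Fcer1g, the signaling chain of activating Fc receptors, had control signals of 386, 163 and 353 in 811a, 812a and 815a and RL signals of 279.9, 129 and 295. In each tumor the RL culture was the lower of the pair, although the ranges of the conditions overlapped across tumors. Tyrobp, the adaptor DAP12 that carries the signal of TREM2 and related receptors, had control signals of 305, 118 and 342 and RL signals of 248.9, 105 and 327. The lowest values of both genes came from tumor 812a. Lilrb4a, an inhibitory receptor of myeloid cells, gave 240.0, 134 and 271 in the control and 165, 113 and 264 in the RL cultures. Ly86, the partner of the Toll-like receptor homolog RP105, was dim at 37.8, 11.9 and 24.6 in the control cultures and was not well above background in the RL culture of 812a, where its signal was 7.55. Spi1, which encodes the myeloid transcription factor PU.1, was detected in no channel, at 1.61 to 1.97.

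Like Fcer1g and Tyrobp, Cd14 was lowest in 812a, whereas the tested probe of Itgam was not. Cd14, a co-receptor for bacterial lipopolysaccharide that mammary epithelium can also make, gave control signals of 13771, 5703 and 6796 and RL signals of 20275, 5083 and 6872. The RL value exceeded the control values of all tumors in 811a alone, with log2 ratios of 0.56, -0.18 and 0.057 in 811a, 812a and 815a and a mean of 0.15 ± 0.38 (SD, n = 3; limma adjusted p = 0.871). Itgam, the integrin chain CD11b, had a probe at 3018, 3309 and 3843 in the control cultures, and here 812a was not the lowest tumor. Its other 2 probes gave 18.5 to 36.4 and 10.8 to 20.7, and the former had its lowest signals in 812a, so the probes of Itgam differed in their order of tumors.

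Of the 10 macrophage genes, Cd163, a scavenger receptor for hemoglobin, was the only one in no channel (signals of 1.57 to 1.87). Csf1r, the receptor that macrophages need to survive, had control signals of 626, 439 and 915 and RL signals of 588, 449.9 and 1005 in 811a, 812a and 815a. Cd68, a glycoprotein of the macrophage endosome, had control signals of 626, 286 and 523 and RL signals of 493, 259 and 477. Both genes were lowest in 812a, and only Cd68 had the lower value in the RL culture of every tumor. Ctss, the cathepsin that trims the invariant chain in antigen-presenting cells, had 1376, 481 and 1179 in the control and 924, 554 and 1206 in the RL cultures. Its log2 ratio changed sign between tumors, at -0.50, 0.24 and -0.022. Lyz2, the lysozyme of myeloid cells, gave control signals of 218, 105 and 116 and RL signals of 174, 90.1 and 137.

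The 3 chains of complement C1q, which tissue macrophages secrete, were detected in every channel. C1qa had control signals of 107, 53.1 and 87.2 and RL signals of 71.8, 40.2 and 80.5. C1qb had 73.3, 42.6 and 41.4 and 53.6, 29.8 and 42.0, and C1qc had 87.5, 48.5 and 62.1 and 50.1, 40.9 and 50.8. Within tumors 811a and 812a the RL signal of all 3 chains was below the control signal, and in 815a the log2 ratios were -0.092, -0.010 and -0.16 for C1qa, C1qb and C1qc. Mrc1, the mannose receptor of alternatively activated macrophages, gave 58.3, 22.5 and 28.1 in the control and 30.2, 19.2 and 29.4 in the RL cultures, and its control culture of 811a stood above the other 5 channels. Adgre1, the F4/80 antigen used to stain mouse macrophages, was dim, with control signals of 19.4, 8.81 and 22.9 and RL signals of 12.6, 14.5 and 22.8. Of 27 further macrophage genes, 26 were on the array and 22 were tested, Mertk was detected on some arrays, and Cx3cr1, Cybb and Ccr2 in no channel.

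Promoter sequences from RefSeq (build GRCm38.p6, 250 bases before to 50 after the start of the gene) were at hand for 28 of the 41 members, in 32 windows. They were searched on both strands for GAGGAA, the core of the site of PU.1, for ATTGG, the Y box that is read as CCAAT on the other strand, and for AGCAAC, the core of the X box of class II promoters. Neighboring matches can share a letter, as ATTGG and GAGGAA share a G, which happened in none of the printed windows. GAGGAA lay in 5 of 7 macrophage windows and in 15 of 32 windows of members, against 28.3% of all 32851 windows. A match describes the letters of the window and is no measured binding. The promoters of 4 macrophage genes that were detected in every channel are printed 5′ to 3′, with each match to any of the 3 motifs, on either strand, in capitals.
Ctss promoter (chr3:95526536-95526835, forward strand): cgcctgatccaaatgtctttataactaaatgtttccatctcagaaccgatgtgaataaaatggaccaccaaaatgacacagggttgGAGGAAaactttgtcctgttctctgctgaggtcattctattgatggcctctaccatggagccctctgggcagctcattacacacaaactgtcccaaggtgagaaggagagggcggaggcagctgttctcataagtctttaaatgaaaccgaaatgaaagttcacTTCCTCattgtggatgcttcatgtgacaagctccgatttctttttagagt
Cd68 promoter (chr11:69666121-69666420, reverse strand): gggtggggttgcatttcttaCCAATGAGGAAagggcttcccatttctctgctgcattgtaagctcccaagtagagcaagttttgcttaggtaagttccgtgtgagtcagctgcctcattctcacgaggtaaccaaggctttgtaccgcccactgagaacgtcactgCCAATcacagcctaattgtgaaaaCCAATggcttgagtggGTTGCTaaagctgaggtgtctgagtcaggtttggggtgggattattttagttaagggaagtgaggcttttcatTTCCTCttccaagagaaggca
C1qb promoter (chr4:136886151-136886450, reverse strand): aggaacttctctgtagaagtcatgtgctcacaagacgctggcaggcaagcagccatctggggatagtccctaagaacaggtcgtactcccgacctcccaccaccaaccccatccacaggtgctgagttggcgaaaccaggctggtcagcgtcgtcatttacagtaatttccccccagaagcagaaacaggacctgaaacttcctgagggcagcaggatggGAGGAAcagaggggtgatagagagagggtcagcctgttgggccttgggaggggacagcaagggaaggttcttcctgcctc
C1qc promoter (chr4:136892865-136893164, reverse strand): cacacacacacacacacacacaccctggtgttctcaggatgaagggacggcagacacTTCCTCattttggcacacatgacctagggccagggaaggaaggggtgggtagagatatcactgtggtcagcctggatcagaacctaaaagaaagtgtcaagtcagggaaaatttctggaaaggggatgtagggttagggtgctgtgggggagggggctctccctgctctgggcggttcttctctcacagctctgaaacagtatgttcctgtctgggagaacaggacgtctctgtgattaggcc
The Cd68 window held 2 copies of GAGGAA beside 3 of ATTGG and 1 of AGCAAC. The Ctss window held 2 copies of GAGGAA, 164 bases before the start and at the start itself. C1qb held 1 copy 30 bases before the start and C1qc 1 copy 193 bases before it.

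Markers of dendritic cells were detected in part. Itgax, the integrin chain CD11c that dendritic cells and some macrophages carry, was well above background in the control culture of 815a alone, at 17.0, and gave 5.02 and 1.76 in the control cultures of 811a and 812a. Of 10 further dendritic cell genes, 9 were on the array and 5 were tested (Zbtb46, Batf3, Siglech, Ccr7 and Irf8). Siglech, a lectin of plasmacytoid dendritic cells, had 1 probe at 39472 to 46482, nearly constant over the channels, and another in no channel, and whether the former reads its own transcript was not tested. The receptors Flt3, Xcr1, Clec9a and Cd209a were detected in no channel. None of the 5 tested genes passed the threshold, and the median log2 ratio of the list was 0.017.

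The 2 granulocyte members differed in detection. Csf3r, the receptor for the growth factor G-CSF, had control signals of 26999, 30213 and 30344 and RL signals of 31236, 27540.5 and 29651, a narrow range in which tumors and conditions overlapped. Whether this probe reads the Csf3r transcript was not tested. Cxcr2, the chemokine receptor of neutrophils, was in no channel, at 1.88 to 4.99. Of 15 further neutrophil genes, 14 were on the array and 10 were tested. Retnlg and Ngp were in no channel, and Mpo and Fpr2 were detected on some arrays. Among the detected ones, S100a8, a calcium-binding protein of neutrophils and of stressed epithelium, gave control signals of 7224, 7530.1 and 3379 and RL signals of 3892, 6022 and 3258. Its log2 ratios were -0.78, -0.33 and 0.016, with a mean of -0.37 ± 0.40 (SD, n = 3; limma adjusted p = 0.593), and it passed without tumor 812a (adjusted p = 0.0304) and with the dye in the fit (0.0489). S100a9, its partner, gave 94.97, 696 and 529, so that the pair had different orders across the tumors. Camp, an antimicrobial peptide, gave 39.0, 563 and 49.8, highest in 812a. The gelatinase Mmp9 gave 107, 10.7 and 193 and was lowest in 812a. Ltf, the lactoferrin that mammary epithelium also secretes, gave 94982, 16245 and 33446. Prtn3, a serine protease of neutrophil granules, gave 431, 188 and 123 in the control and 271, 115 and 91.8 in the RL cultures. Its mean log2 ratio of -0.49 ± 0.16 (SD, n = 3) had the lowest adjusted p of the lists beyond the 41 genes, at 0.139 in limma. It did not pass the threshold there. It passed without tumor 812a (adjusted p = 0.000367), under robust moderation with an intensity trend (0.0225) and when the dye was a term of the limma fit (0.000177). Its adjusted p reached 1.00 in another setting. Of all genes, 4.19% were called lowered without tumor 812a and 0.768% with the dye term. Without 812a the remaining arrays share a dye order, so RL and the dyes cannot be told apart. In the fit with the dye term, dye and tumor 812a cannot be told apart. Of the 10 neutrophil genes tested, 0 passed and 3 (S100a8, Mmp8 and Prtn3) were below 0 with an unadjusted p under 0.05, beside 3.58% of all genes. Mmp8 entered the test through the control cultures alone, where it was higher, so its ratio is not independent of the filter. The median log2 ratio of the 10 was -0.11. The remaining detected genes of the list, Mmp8, Elane, Fpr1 and Cd177, had control signals of 10.1 (Cd177 in 815a) to 334 (Elane in 811a). Of 10 mast cell and eosinophil genes only Tpsb2, a mast cell tryptase, was detected throughout, with control signals of 102, 183 and 186, while Cpa3, Fcer1a, Ms4a2, Epx and Siglecf were in no channel.

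Within the CD3 complex of the T cell receptor, 1 of 3 chains was detected. Cd3e gave control signals of 355, 388 and 367 and RL signals of 385, 354 and 377, whereas Cd3d and Cd3g, which encode the other CD3 chains, were in no channel, at 1.85 to 2.26 and 1.51 to 7.99. Both chains of the CD8 co-receptor were in no channel too, with signals of 1.85 to 2.50 and 1.72 to 3.80 for the probes of Cd8a and 1.47 to 4.95 for Cd8b1. The CD4 co-receptor had a probe at 646, 453 and 557 in the control cultures. Its second probe, read from 10 spots on each array, gave 7.53 to 9.84 and was well above background in 2 control channels and 1 RL channel. Foxp3, the transcription factor of regulatory T cells, was dim but detected in every channel, with control signals of 18.1, 18.7 and 11.9 and RL signals of 20.6, 17.0 and 15.5. Of 14 further T cell genes, 7 were tested and 4 were in no channel: Cd2, Icos, Ctla4 and Il2ra. Zap70, Cd247 and Il7r were detected on some arrays. Bcl11b, a transcription factor of T cells, gave control signals of 24.9, 494 and 217, a wide spread with the lowest value in 811a. Lck, the kinase that starts T cell receptor signaling, gave 337, 316 and 478 and was highest in 815a. Tcf7, a Wnt pathway transcription factor, gave 289.7, 311 and 377, and Cd6, a T cell surface receptor, gave 152, 94.7 and 137. Cd5, Cd28 and Lat were dim, with signals of 9.79 (Cd5) to 33.1 (Cd28).

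Cytotoxic and NK cell genes were also detected in part. Gzmb, the protease granzyme B, was well above background in the control culture of 815a alone, where its signal was 11.4. Prf1, the pore-forming protein that delivers granzymes, gave control signals of 89.1, 103 and 103 and RL signals of 109, 109 and 116. It was the only member with a log2 ratio above 0 in all 3 tumors, at 0.24, 0.10 and 0.060, with a mean of 0.13 ± 0.10 (SD, n = 3; limma adjusted p = 0.779). Nkg7, a granule membrane protein of cytotoxic cells, had 1 probe at 245 to 296 in all 6 channels and another at 1.498 to 1.81 in none. Of 9 further NK cell genes, 7 were in no channel (Klrb1c, Ncr1, Klrk1, Klrd1, Tbx21, Gzma and Xcl1), Il2rb was detected on some arrays and only Eomes, a transcription factor of NK and T cells, was tested, with control signals of 22.7, 8.99 and 45.4.

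No B cell member was detected. Ms4a1, which encodes CD20, gave 1.80 to 3.23 across the 6 channels, and Cd79a, a signaling chain of the B cell receptor, gave 2.11 to 8.02. Cd79b, Pax5, Blk, Jchain and Fcrla were also in no channel, among 8 further genes of B and plasma cells, and Mzb1 was detected on some arrays. The 2 that were tested were Pou2af1, a coactivator of immunoglobulin genes, with control signals of 165, 596 and 68.4, and Cd22, an inhibitory receptor of B cells, with 285, 199 and 192. Pou2af1 was brightest in 812a.

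The 6 lymphoid and granulocyte members that were detected varied little in signal across the 6 channels. The ratio of the highest to the lowest signal was 1.10 for Cd3e, 1.16 for Csf3r, 1.21 for Nkg7, 1.30 for Prf1, 1.42 for Cd4 and 1.72 for Foxp3, with a median of 1.26 over these 6 of 14 genes. Over all genes tested the median ratio was 1.49, with 1.30 and 1.87 as the 25th and 75th percentiles. The 18 tested genes among the 20 shared by leukocytes, shared by myeloid cells or of macrophages had ratios of 1.37 to 5.01, with a median of 2.61. The highest was that of Ly86, whose lowest signal, 7.55, was not well above background. High ratios came from dim probes, as of Laptm5 (3.59), and from bright ones, as of Cd14 (3.99). The groups were not matched in brightness. Of the 6 lymphoid and granulocyte members only Foxp3 exceeded the median of all genes. The tested genes of the further neutrophil, T cell, NK and B cell lists varied more, from 1.40 for Tcf7 to 9.85 for Pou2af1, 15.9 for Camp, 18.2 for Mmp9 and 21.3 for Bcl11b. Whether the bright and nearly constant probes of Csf3r, Cd3e, Cd4, Prf1 and Nkg7 read their own transcripts was not tested. Their detection therefore does not by itself show the cells they mark. Nor was this tested for the brightest probe of Itgam, a shared myeloid gene, at 2796 to 3843 (ratio 1.37). A Csf1r probe that was not used for the test was also nearly constant, at 162 to 174 (ratio 1.07). These ratios describe 3 tumors and were not tested.

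MHC class II genes were detected in part. H2-Ab1, the beta chain of the class II molecule I-A, had control signals of 67.5, 35.3 and 241 and RL signals of 61.5, 34.0 and 248.9. Tumor 815a stood far above the other tumors in both cultures, and the second probe of H2-Ab1 gave the same order, with 47.2, 29.5 and 201 in the control cultures. H2-Aa, the alpha chain of the same molecule, was in no channel, at 1.98 to 5.68. H2-Eb1, the beta chain of I-E, gave 44.4, 25.02 and 47.7 in the control and 40.8, 19.2 and 50.1 in the RL cultures. H2-DMa, part of the catalyst of peptide loading, gave 58.2, 34.7 and 35.7 and 54.1, 32.3 and 34.5. Both had their lowest RL signal in 812a. Cd74, the invariant chain, gave 31.0, 29.7 and 48.7 and 42.6, 33.5 and 39.7, with log2 ratios of both signs (0.17, 0.11 and -0.20). Ciita, the coactivator of all these genes, was in no channel, at 1.91 to 5.90. Of 9 further class II genes, 8 were on the array and 5 were tested: H2-DMb1, H2-Ob and the promoter-binding factors Rfx5, Rfxap and Rfxank. H2-DMb1, the partner of H2-DMa, gave control signals of 1742, 348 and 529, highest in 811a. H2-DMb2 was in no channel, and H2-Oa and H2-Eb2 were detected on some arrays.

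The promoter windows of H2-Eb1 and H2-Aa are printed in the same way because their genes differed in detection while both windows held a Y box. ATTGG lay in 3 of 4 class II windows, against 37.4% of all windows and 11 of 32 windows of members, and AGCAAC in 1 of 4, against 14.8% of all windows and 6 of 32 windows of members.
H2-Eb1 promoter (chr17:34305617-34305916, forward strand): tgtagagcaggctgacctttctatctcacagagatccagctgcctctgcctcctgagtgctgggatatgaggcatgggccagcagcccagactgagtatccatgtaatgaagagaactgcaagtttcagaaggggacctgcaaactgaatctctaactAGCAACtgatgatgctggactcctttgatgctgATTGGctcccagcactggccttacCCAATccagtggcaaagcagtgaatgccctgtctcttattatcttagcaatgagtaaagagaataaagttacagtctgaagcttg
H2-Aa promoter (chr17:34287774-34288073, reverse strand): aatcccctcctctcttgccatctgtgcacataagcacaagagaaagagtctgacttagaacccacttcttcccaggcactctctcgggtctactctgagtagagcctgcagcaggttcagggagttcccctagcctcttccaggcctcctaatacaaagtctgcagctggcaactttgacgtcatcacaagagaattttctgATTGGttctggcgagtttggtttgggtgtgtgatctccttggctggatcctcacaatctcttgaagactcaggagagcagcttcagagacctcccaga
The H2-Eb1 window held AGCAAC 92 bases before the start, followed by ATTGG at 59 and, on the other strand, at 35 bases before it. H2-Aa held ATTGG 48 bases before the start.

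No member changed with RL past the threshold. In limma, 0 of the 28 members tested were raised and 0 were lowered at an adjusted p under 0.05, where 1 (0.0046%) of 21743 genes was raised and 5 (0.023%) were lowered. Of these 21743, 14043 had a gene symbol and 7700 were transcripts known by an array identifier alone, each counted as a gene wherever all genes tested are the background. At an unadjusted p under 0.05, 0 members were raised, beside 3.5% of all genes, and 5 were below 0, beside 3.58%. A rank product, the study's own kind of test, called 0 members in either direction, beside 29 (0.134%) of 21721 genes raised and 45 (0.207%) lowered. Of the 28, 9 had a log2 ratio below 0 in all 3 tumors, beside 13.5% of all genes, and 1 had it above 0, beside 14.1%. The median log2 ratio was -0.039 over the 28 members and -0.0020 over all genes. Across probes well above background, the log2 ratios of the arrays correlated at 0.434 for 811a with 815a, which share their dye order, and at -0.096 for 811a and -0.082 for 815a with 812a, whose dyes were swapped.

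**Figure D2:**
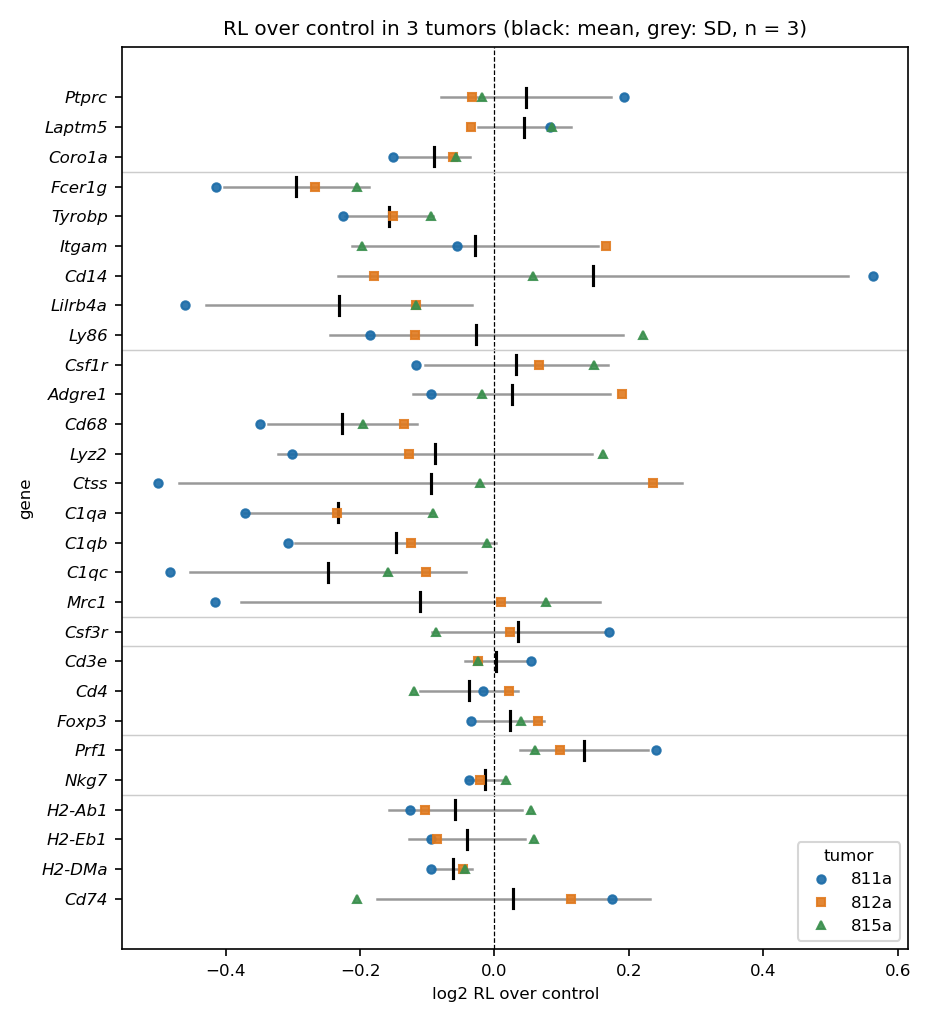
Log2 ratio of RL over control of the 28 tested genes in tumors 811a, 812a and 815a (symbols), with their mean (black bar) and SD (grey line, n = 3). The means range from -0.29 for Fcer1g to 0.15 for Cd14, and no gene passed the threshold.

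The 5 members with an unadjusted p under 0.05 were all of the myeloid and macrophage groups. Fcer1g had log2 ratios of -0.41, -0.27 and -0.20 in 811a, 812a and 815a, with a mean of -0.29 ± 0.11 (SD, n = 3; limma adjusted p = 0.393). Cd68 had -0.35, -0.13 and -0.19, with a mean of -0.23 ± 0.11 (limma adjusted p = 0.558). The values lay on 1 side of 0 in every tumor, farthest from it in 811a. C1qa had -0.37, -0.23 and -0.092, with a mean of -0.23 ± 0.14 (limma adjusted p = 0.561). C1qc had -0.48, -0.10 and -0.16, with a mean of -0.25 ± 0.21 (limma adjusted p = 0.596). For Lilrb4a the ratios were -0.46, -0.12 and -0.12, with a mean of -0.23 ± 0.20 (limma adjusted p = 0.642). All 5 were below 0 on 3 of 3 arrays and under each of 16 alternative settings. Tyrobp and C1qb, at -0.16 ± 0.066 and -0.15 ± 0.15, were also below 0 in every tumor. Their adjusted p in limma was 0.708 and 0.774.

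For 4 of these 5 genes the call depended on whether tumor 812a was kept, and C1qa passed in no setting, with a lowest adjusted p = 0.118 in limma. Without 812a, the adjusted p in limma was 0.0238 for C1qc (log2 ratio -0.32), 0.0247 for Fcer1g (-0.31), 0.0468 for Lilrb4a (-0.29) and 0.0490 for Cd68 (-0.27), and 0.0449 for Cd14 (0.31). The 2 arrays that this fit kept have the same dye order, so RL and the dyes cannot be told apart in it, and 567 (2.55%) of 22238 genes were then called raised and 931 (4.19%) lowered. With a dye term on all 3 arrays Fcer1g passed, with a log2 ratio of -0.29 and an adjusted p = 0.0427, and no other member did, beside 124 genes (0.57%) raised and 167 (0.768%) lowered. The dye term sets 812a against the other 2 arrays, so dye and tumor 812a cannot be told apart in that fit. It also leaves fewer residual degrees of freedom than the main fit. The adjusted p of Fcer1g ranged from 0.0247 to 1.00 over the settings.

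By list, the median log2 ratio was -0.11 for the 9 macrophage genes, with -0.35, -0.10 and -0.019 in 811a, 812a and 815a, so that the value of 811a was the farthest from 0. It was above 0, at 0.018, without tumor 811a, and farther below 0 without 812a (-0.17) or 815a (-0.21), with an offset of 10 or the authors' ratios (both -0.17), with median centring (-0.23) and with processed signals (-0.24). The 6 shared myeloid genes had a median of -0.093 (-0.20, -0.13 and -0.11 by tumor), the 4 class II genes -0.049, the 3 pan-leukocyte genes 0.044, the 3 T cell genes 0.0021 and the 2 cytotoxic genes 0.059. By tumor the pan-leukocyte median was 0.083, -0.035 and -0.019. Ptprc entered that list through the RL cultures alone, and the median was below 0 when detection in every channel was required. Of 22 further macrophage genes tested, 0 passed the threshold and 3 were below 0 with an unadjusted p under 0.05, beside 3.58% of all genes. Trem2, a lipid receptor that signals through Tyrobp, had a mean log2 ratio of -0.40 ± 0.33 (SD, n = 3; limma adjusted p = 0.475). Pf4, a chemokine of platelets and macrophages, had -0.31 ± 0.34 (limma adjusted p = 0.631), and Fcgr2b, the inhibitory Fc receptor, had -0.22 ± 0.22 (limma adjusted p = 0.700). All 3 were lower in the RL culture of every tumor. Of the 22 genes, 14 had a mean log2 ratio below 0 and 8 above it. In every tumor, 8 were below 0 and 1, Cyba, was above it, with a mean of 0.16. The median of the 22 was -0.065, with -0.14, -0.043 and 0.00029 in 811a, 812a and 815a. Without tumor 812a the adjusted p in limma was 0.00326 for Trem2 and 0.00204 for Pf4, and with a dye term it was 0.0215 for Trem2. These fits called 4.19% and 0.768% of all genes lowered, and both have the limits given above.

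Levels were also compared between the tumors, without a test. The level of a gene in a tumor, taken as the mean log2 intensity of both channels of its array minus the mean over the 3 tumors, was lowest in 812a for 22 of the 28 members, beside 30.4% of all genes. It was lowest in 815a for 5 members, beside 32.9% of all genes, and in 811a for 1, Itgam, beside 36.7%. All 9 macrophage genes were lowest in 812a, as were 3 of 3 pan-leukocyte genes, 5 of 6 shared myeloid genes and 3 of 4 class II genes. In the further lists this held for 19 of 22 macrophage and 9 of 13 pan-leukocyte genes but for 1 of 5 class II genes, of which 4 were lowest in 815a. Tyrobp stood at 0.29, -0.76 and 0.47 in 811a, 812a and 815a, Fcer1g at 0.31, -0.63 and 0.32 and Ctss at 0.31, -0.63 and 0.32. In these 3 genes 812a stood below both other tumors. H2-Ab1 stood at -0.32, -0.76 and 1.07, with 815a alone above its mean. Cd14 stood at 1.00, -0.60 and -0.40, with 811a alone above its mean. Each level is a single tumor, taken over 1 Cy3 and 1 Cy5 channel, and no test was made.

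**Figure D3:**
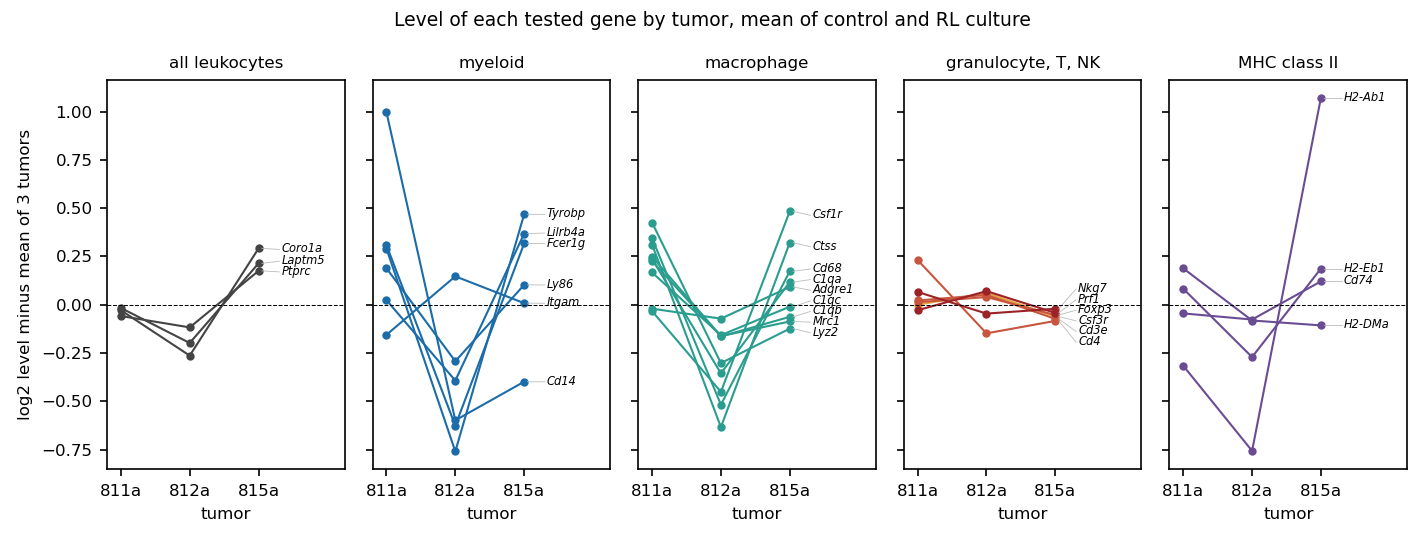
Log2 level of each tested gene in tumors 811a, 812a and 815a (mean of the control and RL culture) minus its mean over the 3 tumors, by lineage. Lines join the values of a gene and mark no order of the tumors. All 9 macrophage genes have their lowest value in 812a, and the granulocyte, T cell and NK genes lie between -0.15 and 0.23.

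The median level by tumor was 0.24, -0.30 and 0.092 for macrophage genes, 0.24, -0.50 and 0.21 for shared myeloid genes, -0.028, -0.20 and 0.21 for pan-leukocyte genes and 0.019, -0.18 and 0.15 for class II genes in 811a, 812a and 815a. The T cell genes stood at 0.022, 0.040 and -0.073 and all genes at -0.0043, 0.013 and -0.015. Of the T cell genes, 1 of 3 members (Cd4, at 0.23, -0.15 and -0.084) and 3 of 7 further genes were lowest in 812a. The further macrophage list stood at 0.18, -0.40 and 0.19 and the further class II list at 0.028, 0.026 and -0.061. As signal, the 9 macrophage genes summed to 3191, 1487 and 2975 in the control cultures and 2397, 1498 and 3050.2 in the RL cultures.

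Markers of other cells that the cultures could hold were measured too. All 9 fibroblast genes (with collagens and Pdgfra) were detected, with summed signals of 6624, 3725 and 14785 in the control and 5425, 3891 and 14037 in the RL cultures, with the highest probe signal from Col1a2 in 811a and 815a and from Postn in 812a. Their median log2 ratio was -0.30, 0.032 and -0.047 in 811a, 812a and 815a, so that fibroblast as well as macrophage genes stood lowest with RL in 811a. Their median level was -0.40, -0.43 and 0.73, which sets 815a apart, as for H2-Ab1. All 12 epithelial genes were detected, with summed signals of 278699, 231538 and 371479.9 in the control and 256504, 220886 and 331586 in the RL cultures, the highest probe signal being that of Krt18. Their median log2 ratio was 0.13, -0.17 and -0.072 and their median level 0.040, -0.26 and 0.29, also lowest in 812a. Of 8 endothelial genes, 3 were tested, Tek was in no channel, and Cdh5, Tie1, Emcn and Robo4 were detected on some arrays. None of the 4 erythroid genes on the array was detected in all 3 RL cultures, and Hba-a1, a chain of hemoglobin, was detected in all 3 control cultures, at 76.0, 44.0 and 12.4. Alas2 was in no channel. The part of these cells in the values of the leukocyte genes was not tested. In the named genes of these lists, Pdgfra had a mean log2 ratio of -0.19 ± 0.17, Elf5 of -0.14 ± 0.066, Esam of 0.16 ± 0.13 and Hba-a1 of -0.27 ± 0.23 (SD, n = 3), none past the threshold. Without tumor 812a the adjusted p of Hba-a1 in limma was 0.0171, in a fit that called 4.19% of all genes lowered. Hba-a1 entered the test through the control cultures alone, where it was higher, so its ratio is not independent of the filter.

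**Figure D4:**
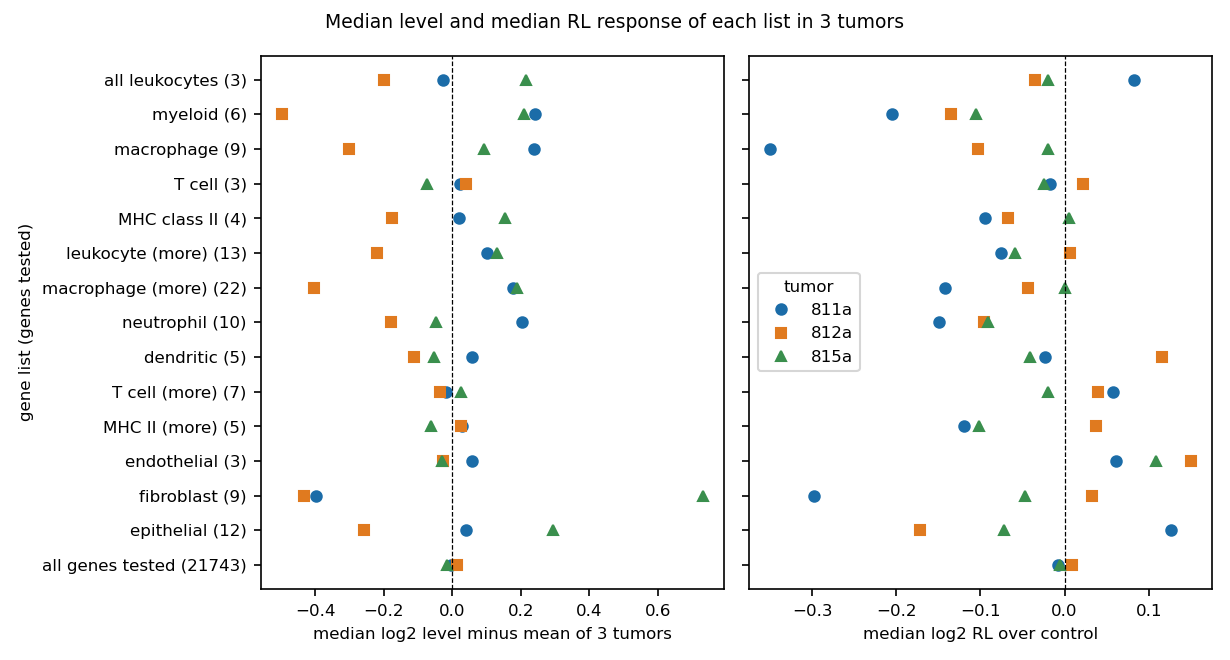
Median level minus the mean of 3 tumors (left, log2) and median log2 ratio of RL over control (right) of each gene list in tumors 811a, 812a and 815a, with the number of genes tested in parentheses. Macrophage and myeloid lists are lowest in 812a on the left, and the macrophage list has its lowest ratio, -0.35, in 811a on the right.

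Up to 3 genes of each further list were named for the largest mean log2 ratio among genes on the same side of 0 in every tumor. Those not yet given were Cd37, Lcp1 and Rac2 of the leukocyte list (-0.13 ± 0.068, -0.13 ± 0.12 and -0.060 ± 0.012), Mmp8 and S100a9 of the neutrophil list (-0.25 ± 0.20 and -0.13 ± 0.074), Cd28, Lck and Cd5 of the T cell list (-0.17 ± 0.12, 0.11 ± 0.088 and -0.093 ± 0.068), and Eomes, Pou2af1 and Rfxap (0.12 ± 0.11, -0.23 ± 0.27 and -0.15 ± 0.13), given as mean log2 ratios with SD (n = 3). None of them passed the threshold, and Mmp8 and Rac2 entered the test through the control cultures alone. Camp, Fpr1, Cd177 and Mmp9 of the neutrophil list also stood on 1 side of 0 in every tumor, with smaller means, and did not pass. The tested probe of Camp had a mean of -0.098, whereas its second probe had log2 ratios of both signs (0.12, -0.070 and 0.22) and a mean of 0.090. Without tumor 812a the adjusted p in limma was 0.0218 for Mmp8 and 0.0342 for Pou2af1. That fit called 4.19% of all genes lowered.

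Where a gene had several probes, they did not always give the same picture, and this bears on which cells the detection calls name. Of the 9 members with more than 1 probe, Cd8a had both probes in no channel. Nkg7 had 1 of 2 probes in all 6 channels and the other in none, and Cd4 and Laptm5 had 1 in all 6 channels and the other on some arrays. Csf1r had 3 probes in all 6 channels: 1 at 439 to 1005 and 1 at 9.52 to 43.1, both lowest in 812a, and 1 at 162 to 174, with nearly the same signal in every channel. Lilrb4a, Adgre1 and H2-Ab1 had both probes in all 6 channels. The second probe of Lilrb4a, at 10.2 to 40.8, had a mean log2 ratio of -0.16, beside -0.23 for the probe that was tested. Probe means lay on both sides of 0 for Itgam (-0.029 to 0.075), Csf1r (-0.022 to 0.054), Adgre1 (-0.022 to 0.026) and Nkg7 (-0.014 to 0.041). Both probes of H2-Ab1 had log2 ratios of opposite sign in every tumor. No probe was available here for Clec7a, Ly6g, Itgae, H2-Ea and Hbb-bs of the further lists, which were not analysed.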

How the data were processed

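RNA of control and RL cultures of 3 PyMT tumors was hybridized on 3 two-color arrays. The authors measured the spots with version 10.7.3.1 of Agilent Feature Extraction and deposited median spot and background intensities, processed signals, and marks (of the type other than a measurement) for outlier, saturated and well above background spots. The authors also deposited a table of log2 ratios with medians of 0.00244, 0.000154 and -0.00126 for 811a, 812a and 815a. Set against the scanner values its columns were Cy5 over Cy3 (r = 0.962, 0.953 and 0.959 after the dye sign, slopes of 1.18, 1.20 and 1.18), so direction was settled, log base and centring rest on these slopes and medians, and the normalization behind them is unknown.

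The main steps used limma 3.58.1 under R 4.3.3: normexp (offset 50) on the deposited median intensities, loess on intensity and then on row and column (span 0.1), and Aquantile. The study's methods name these steps, and offset, spans, order and median intensities were chosen here. Outlier spots were left out and spots of a probe averaged. Of 55681 probes, 28026 were named through their unversioned accession and a RefSeq gene table (GRCm38.p6). A probe read from several spots counted as well above background where at least 0.5 of its spots were marked. A gene was tested by its brightest probe among those with that mark in each control or each RL channel. Log2 ratios of RL over control, which pair both cultures of a tumor, were fitted with lmFit and eBayes. The residual degrees of freedom were 2, those of the prior 6.66, and Benjamini-Hochberg adjustment ran over all 21743 genes, 7700 of them transcripts without a symbol. The programs were tested on simulated data. Over all probes, 27 were well above background in all channels of 1 condition and none of the other, and 0 of these were probes of members.

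The members and the further lists were chosen with earlier results of these data known, and 4 genes of the further lists were later left out of the text and its counts. Values are given for every detected member. From the further lists, named genes were those past the threshold, the 3 largest mean log2 ratios with the same sign in every tumor, and the detected lymphocyte, granulocyte and mast cell genes, and genes in no channel or on some arrays and a few others were named beside them after their values were seen. Negative control spots served an alternative detection call. Other control spots, list tests and genome coordinates of the array's own build were not used here.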

Additional observations from a re-analysis of the deposited data

How the results depend on the processing

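The counts over all genes depended on the processing. Of 1 gene raised and 5 lowered, the counts became 6 and 12 without background correction, 4 and 10 with an offset of 10, 14 and 29 with an intensity trend and robust moderation, 124 and 167 with a dye term, and 29 and 45 by rank product. They became 0 and 0 with the software's processed signals or with median centring, 0 and 3 with no filter on dim probes or with detection in all 6 channels required, and 3 were lowered with the mean over probes and 2 raised with the authors' ratios. Leaving out a tumor gave 0 to 567 raised and 1 to 931 lowered genes, and 0 to 1 raised and 0 to 4 lowered members, with 1 member lowered under the dye term. Fits without a tumor have fewer arrays. For the rest the cause was not tested.

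Median centring shifted all genes, whose median became -0.11. Medians under it were 0.00038 for pan-leukocyte, -0.26 for shared myeloid, -0.23 for macrophage, -0.17 for granulocyte, -0.13 for T cell, -0.036 for cytotoxic and -0.14 for class II genes and -0.17 for all members. Relative to all genes they were 0.11, -0.15, -0.11, -0.058, -0.017, 0.075, -0.025 and -0.055. With processed signals the medians were -0.25 for shared myeloid and 0.011 for cytotoxic genes and -0.12 for all members. Without the filter they were -0.029 (shared myeloid) and -0.014 (cytotoxic). With detection in all 6 channels they were -0.023 (pan-leukocyte) and -0.16 (shared myeloid). Leaving out a tumor gave -0.026 to 0.084 for pan-leukocyte, -0.17 to -0.089 for shared myeloid and -0.024 to 0.015 for T cell genes. The medians of shared myeloid and class II genes and of all members were below 0 in each of 16 settings. The macrophage median had the other sign in 1 of them and ranged from -0.24 to 0.018, at most 1 SD over tumors from its value.

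The number of members in no channel was 2 by the software's positive and significant call and 0 by the 95th percentile of negative control spots, against 11, and for Spi1, Cd163, Cd3d and Ms4a1 these calls rest on 1 or 2 channels or none. The 11 stood beside 26.6% of all named genes, and that share was not counted under the other calls. Dim signals therefore limit what can be said of the genes in no channel. With processed signals the median level of pan-leukocyte genes was -0.53 in 812a and 0.70 in 815a, that of T cell genes 0.21 in 811a, that of class II genes -0.49 in 812a and 0.35 in 815a, and that of all members -0.49 in 812a. Over all alternative settings, 17 values of members and named genes of the further lists together passed the threshold. Of the other values, 706 lay within 1 SD over tumors of the main value and 40 did not. The 17 came from the fits without 812a, with a dye term or with an intensity trend and robust moderation. Of all genes, the first called 2.55% raised and 4.19% lowered, and the second 0.57% and 0.768%. The sizes of single genes moved as well, and the log2 ratio ranged from -0.48 to -0.13 for C1qc and from -0.40 to 0.043 for Mrc1. By processed signals 24 members were lowest in 812a, beside 42.8% of all genes, and without Aquantile 22, beside 33% of all genes. All 9 macrophage genes were lowest in 812a in both settings. Each ratio is taken within a tumor and so holds the pairing of the cultures.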
